A study of Mus musculus with 12 samples.

Results

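Airway antimicrobial secretions are represented by 9 genes: Ltf, Lcn2, Reg3g, Dmbt1, Pigr, Slpi, Lyz1, Lyz2 and Bpifa1. They were measured in whole lung RNA of 12 mice on single-colour (Cy3) Agilent arrays, 1 array per mouse. All array probes that carried one of these gene names were taken, including older names that could be matched through their accessions (Lyz for Lyz1, Lyzs for Lyz2 and Plunc for Bpifa1). This gave 12 of 41174 probes, for 9 of the 27595 gene names on the array. Of the 12 probes, 11 passed the filter on dim probes (4 or more of the 12 arrays with a signal well above background), so that all 9 genes were among the 19829 genes tested. The probe left out was a second Slpi probe, A_51_P135148, which was well above background on 0 of 12 arrays.

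The 3 groups held 4 mice each. Wild-type (WT) mice breathed either room air or cigarette smoke, and Rora mutant mice breathed cigarette smoke. Rora is a gene for a nuclear receptor that binds DNA as a monomer. Smoke was given on 5 days a week for 4 months, and the labels give male sex, strain C57Bl/6 and an age of 12 weeks for every mouse in all 3 groups, an age shorter than the exposure. The mutant allele is not given in the sources used here, and mutants kept in room air were not analysed here. Genotype alone and its interplay with smoke therefore cannot be told apart.

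The conducting airways are lined with a fluid that epithelial and gland cells load with proteins acting on inhaled microbes. Lactoferrin and lipocalin 2 withhold iron, lysozymes cut bacterial cell walls, a C-type lectin kills Gram-positive bacteria, and the polymeric immunoglobulin receptor carries IgA across the epithelium. Antiproteases and surface-active proteins of the same fluid limit tissue damage and biofilms, and several of these genes are known to be induced by cytokines such as IL-17 and IL-22. Phagocytes make some of the same proteins: lactoferrin and lipocalin 2 are stored in neutrophil granules, and lysozyme 2 is abundant in macrophages.

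A level here is the log2 of a probe's processed signal relative to the 75th percentile of its own array, so that 0 is the signal of a probe at that percentile. Levels are compared between mice for a probe, not between probes. The share of spots well above background was 70.1% to 74.8% on the 12 arrays. The 75th percentile of the signal ran from 785.2 to 1312.6 intensity units. The number of arrays limits the precision. The mean Rora level was 1.10 ± 0.04 (SD, n = 4) for room air, 1.18 ± 0.04 for WT smoke and -1.01 ± 0.10 for mutant smoke, and mutant smoke differed from WT smoke by -2.20 ± 0.06 (SE) (limma adjusted p = 1.17e-09). Sex-linked transcripts went against the male label of the room air mice: Xist was at 4.04 ± 0.07 there, while the WT and mutant smoke groups had -5.39 ± 2.08 and -4.61 ± 1.26. For the Y-linked Ddx3y, 0 of 4 room air arrays and 4 of 4 arrays in each smoke group exceeded background well. Both comparisons with room air thus hold a sex-linked difference as well as smoke, and the 2 cannot be told apart, whereas between the smoke-exposed groups Xist differed by 0.78 ± 0.88 and Ddx3y by 0.05 ± 0.41 (limma adjusted p = 0.677 and 0.965). Whole lung RNA was checked against 7 markers of alveolar type 2 cells, all well above background on 12 arrays, whose summed level ran from 786 to 988 in room air, 652 to 1110 in WT smoke and 815 to 866 in mutant smoke. Sftpc, with mean levels of 9.30, 9.34 and 9.27, was the largest part of these sums. Of the 7 markers, 2 fell in WT smoke against room air (Lamp3 and Sftpa1, each by 0.27 on the log2 scale, limma adjusted p = 0.0199 and 0.0321), 0 passed in mutant against WT smoke, and 1 fell in mutant smoke against room air (Lamp3, by 0.19, limma adjusted p = 0.0366). By the same test 2.55%, 3.56% and 10.0% of all genes tested fell in these comparisons, in that order.

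The 9 genes moved in different ways. Against the WT room air mice, Ltf was 4.07-fold lower in WT smoke and 4.11-fold lower in mutant smoke, Lcn2 fell in WT smoke, and Reg3g and Pigr fell in mutant smoke. All these comparisons with room air hold the sex-linked difference as well as smoke, and those for mutant smoke hold genotype too. No call was made for Slpi, Lyz1, Lyz2, Bpifa1 or Dmbt1. Between the smoke-exposed genotypes no member passed the test. With another background correction (normexp in place of the scanner's own), none of these calls was made, with limma adjusted p of 0.106 and 0.386 for Ltf and Lcn2 in WT smoke and 0.0543, 0.0624 and 0.0728 for Ltf, Pigr and Reg3g in mutant smoke.

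By count, 0 members rose and 2 fell (Ltf and Lcn2) in WT smoke against room air, where over all genes tested 2.30% were higher and 2.55% lower at the same threshold (4.86% in either direction). The groups of 4 did not overlap for 3 of the 9 members (Ltf, Lcn2 and Pigr), against 12.9% of all genes. The median change of the 9 was -0.41, against -0.01 over all genes. In mutant against WT smoke 0 members passed by limma, where 2.49% of all genes were higher and 3.56% lower (6.05% in either direction), while 4 members had an unadjusted p under 0.05. The groups did not overlap for 4 of 9 (Lcn2, Slpi and Bpifa1 higher, Pigr lower), against 13.4% of all genes, and the median change was 0.02 against 0. In mutant smoke against room air 0 members rose and 3 fell (Ltf, Reg3g and Pigr), where 6.67% of all genes were higher and 10.0% lower (16.7% in either direction). The groups did not overlap for 4 of 9 (those 3 and Slpi), against 21.0% of all genes, and the median change was -0.02 against -0.01. The comparisons share groups of mice, so their counts are not independent of each other.

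**Figure D1:**
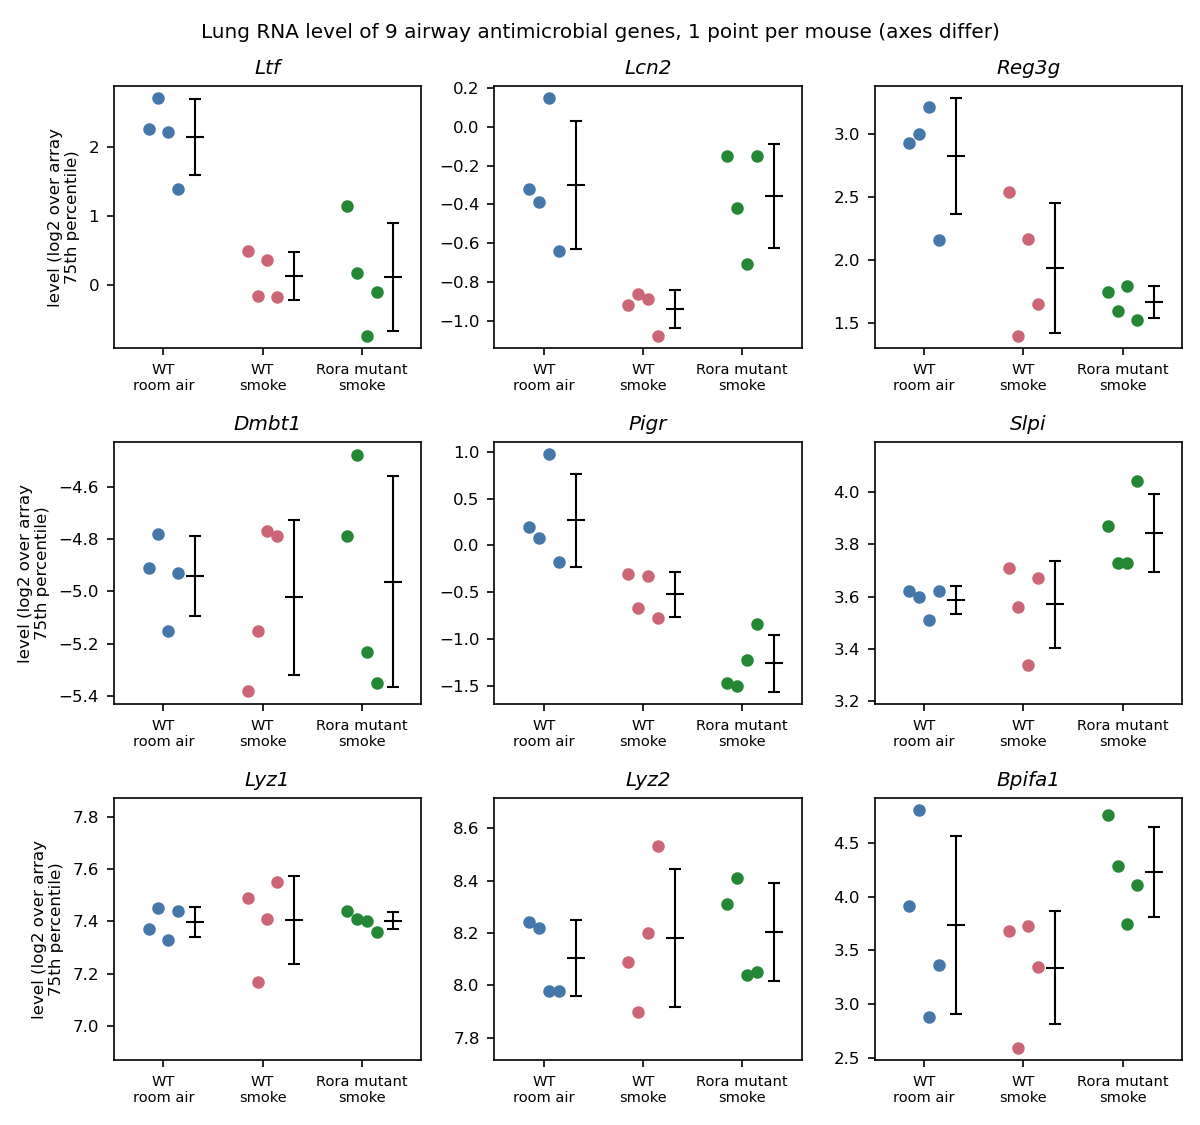
Level of each gene in each mouse (log2 over the array's 75th percentile; the axes differ between panels), with the mean and SD of 4 mice beside each group. Ltf lies between 1.39 and 2.72 in room air and between -0.75 and 1.14 in both smoke groups, Pigr steps down through the 3 groups, and the Lyz1 means are 7.40, 7.41 and 7.40.

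**Figure D2:**
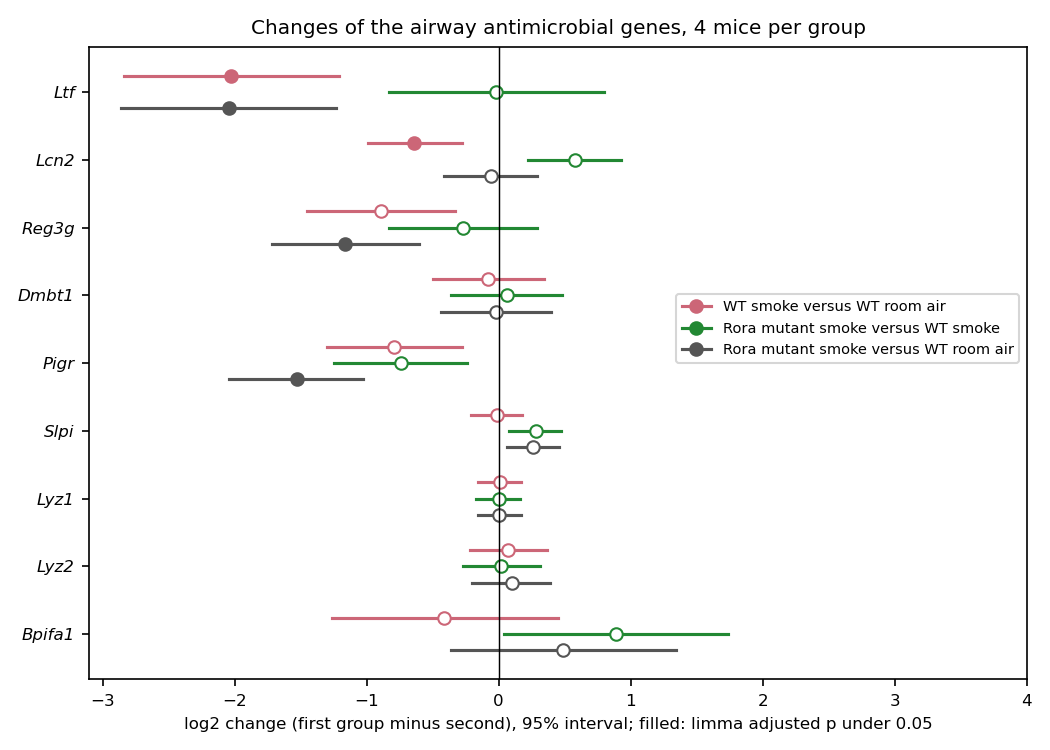
Log2 change of each gene in the 3 comparisons (points; bars are 95% intervals from limma, 4 mice per group; filled points have a limma adjusted p under 0.05). Ltf is near -2 in both comparisons with room air (-2.03 and -2.04) and near 0 between the smoke groups (-0.02), and the Lcn2 change is -0.64 in WT smoke against room air and 0.58 in mutant against WT smoke.

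Ltf encodes lactoferrin, an iron-binding protein of mucosal secretions and of neutrophil secondary granules. Its brighter probe, A_52_P15388, lies at chr9:110885185-110885244 of mouse build mm8. In room air the levels of replicates 1 to 4, the order used throughout, were 2.27, 2.72, 2.23 and 1.39. After smoke, WT mice had levels of 0.49, -0.17, 0.36 and -0.18, and mutants had levels of 1.14, 0.17, -0.75 and -0.11. All 8 smoke-exposed mice lay below the lowest room air mouse, and the smoke groups overlapped each other widely. The mean levels in room air, WT smoke and mutant smoke, in that order here and for the genes below, were 2.15 ± 0.56, 0.13 ± 0.35 and 0.11 ± 0.79 (SD, n = 4). Ltf fell in WT smoke against WT room air, with a log2 change of -2.03 ± 0.37 (SE; 95% interval -2.84 to -1.21), which is 4.07-fold lower (limma adjusted p = 0.0101). In mutant smoke against the same room air mice it fell by 2.04 ± 0.37 on the log2 scale, 4.11-fold, with a limma adjusted p of 0.00377. Between mutant and WT smoke the change was -0.02 ± 0.37 with a wide interval of -0.83 to 0.80 (limma adjusted p = 0.989).

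The second Ltf probe, A_51_P188141, lies at chr9:110880576-110883626 (mm8). It had levels of 1.86, 2.34, 1.90 and 1.10 in room air, 0.25, -0.62, 0.00 and -0.37 in WT smoke, and 0.64, -0.33, -1.12 and -0.53 in mutant smoke. In a fit over all 30197 probes its changes were -1.99 ± 0.35 for WT smoke (limma adjusted p = 0.00873) and -2.14 for mutant smoke (limma adjusted p = 0.00228), each against room air. The mice ranked much alike on both probes: their deviations from the group means had a Pearson r of 0.99 (permutation p = 0.00014, adjusted p = 0.00028 over 2 genes with a pair of probes) and a Spearman rho of 0.97 (permutation p = 0.00059, adjusted p = 0.00118). Without the 2 mice farthest from the median, r was 0.98. Ltf lies on the chromosome of Rora, with 41.7 Mb between their probes.

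**Figure D3:**
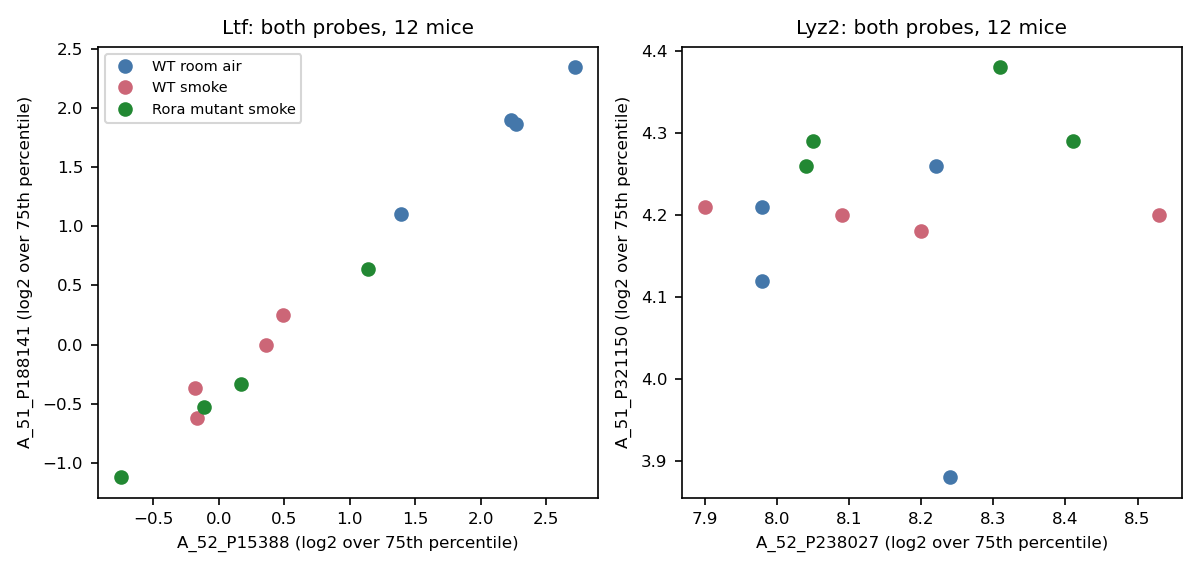
Levels of the pair of probes of Ltf (left) and of Lyz2 (right) in each of the 12 mice, as log2 over the 75th percentile of the array. The Ltf probes follow a line from the mutant mouse at -0.75 to the room air mouse at 2.72, whereas the Lyz2 probes show no common order (r of deviations 0.99 and -0.09).

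The 250 bases before the transcription start of a gene are shown for the 4 members that passed a test in any comparison, Ltf, Lcn2, Reg3g and Pigr, from RefSeq (GRCm38.p6), which held 8 of the 9 members. Capitals mark matches, on either strand, to any of 4 motifs: AGGTCA, the half-site of nuclear receptors including Rora; TTGCNNAA, for C/EBP factors; TTCNNNGAA, for STAT factors; and GGGA followed after any 4 bases by CC, for NF-kB. The windows are chr9:111019042-111019291 on the plus strand for Ltf, chr2:32387740-32387989 on the minus strand for Lcn2, chr6:78468875-78469124 on the minus strand for Reg3g and chr1:130826434-130826683 on the plus strand for Pigr. Each is written 5′ to 3′ towards the start.
Ltf: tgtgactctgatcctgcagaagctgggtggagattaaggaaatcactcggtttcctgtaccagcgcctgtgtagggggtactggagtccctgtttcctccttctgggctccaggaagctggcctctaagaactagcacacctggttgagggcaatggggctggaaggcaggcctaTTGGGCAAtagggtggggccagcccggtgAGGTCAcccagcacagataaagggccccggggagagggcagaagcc
Lcn2: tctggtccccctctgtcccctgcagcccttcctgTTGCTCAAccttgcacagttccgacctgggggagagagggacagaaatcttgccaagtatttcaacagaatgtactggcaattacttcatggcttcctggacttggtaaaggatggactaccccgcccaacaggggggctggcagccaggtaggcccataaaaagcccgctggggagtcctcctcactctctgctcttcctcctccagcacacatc
Reg3g: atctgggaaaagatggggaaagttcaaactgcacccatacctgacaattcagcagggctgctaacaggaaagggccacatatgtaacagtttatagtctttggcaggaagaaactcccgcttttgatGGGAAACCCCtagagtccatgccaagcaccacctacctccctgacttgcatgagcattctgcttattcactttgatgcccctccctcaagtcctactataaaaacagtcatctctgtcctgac
Pigr: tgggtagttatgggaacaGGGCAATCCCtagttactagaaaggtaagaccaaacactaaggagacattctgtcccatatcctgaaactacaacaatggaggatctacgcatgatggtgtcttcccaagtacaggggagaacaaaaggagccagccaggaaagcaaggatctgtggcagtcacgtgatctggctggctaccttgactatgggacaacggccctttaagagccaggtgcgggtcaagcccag
The Ltf window holds AGGTCA at 46 to 41 bases before the start and a C/EBP match at 75 to 68 bases. Lcn2 has a C/EBP match at 216 to 209 bases, Reg3g an NF-kB match at 123 to 114 bases, and Pigr an NF-kB match at 232 to 223 bases. Of the 32851 windows of this length in the table, 14.0% hold AGGTCA, 9.56% the C/EBP motif, 7.02% the STAT motif and 17.6% the NF-kB motif. Among the 8 members with a window, 2 hold AGGTCA (Ltf and Lyz1), 4 the C/EBP motif (Lcn2, Ltf, Lyz1 and Slpi), 2 the NF-kB motif (Pigr and Reg3g) and 0 the STAT motif. A match describes the letters of the window and is not a binding site.

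Lcn2 encodes lipocalin 2, which binds bacterial siderophores and so keeps iron from bacteria. Its probe lies at chr2:32207526-32207770 (mm8). Room air mice had levels of -0.32, -0.39, 0.15 and -0.64, WT smoke mice -0.92, -0.86, -0.89 and -1.08, and mutant smoke mice -0.15, -0.42, -0.71 and -0.15. The WT smoke mice formed a tight group below every mouse of both other groups, which overlapped each other. The group means were -0.30 ± 0.33, -0.94 ± 0.10 and -0.36 ± 0.27 (SD, n = 4). Against room air, Lcn2 fell in WT smoke by 0.64 ± 0.16 on the log2 scale, 1.56-fold (95% interval -0.99 to -0.28, limma adjusted p = 0.0458). That call was near its threshold: it was lost in 16 of 21 alternative settings, where the limma adjusted p ran from 0.0307 to 0.386 over all 21. They include leaving out room air replicate 1, 2 or 3, any WT smoke replicate, or mutant replicate 1, 2 or 4; without room air replicate 3 the change was -0.49 (limma adjusted p = 0.0838). In mutant smoke the level was 0.58 ± 0.16 above WT smoke (95% interval 0.22 to 0.93) and missed the threshold at a limma adjusted p of 0.0584. It passed in 5 of 21 alternatives, among them without room air replicate 3 (0.58, limma adjusted p = 0.0279), without room air replicate 4 (0.0458) and without mutant replicate 3 (0.70, 0.0328). The mutant and room air means differed by -0.06 ± 0.16 (95% interval -0.41 to 0.29, limma adjusted p = 0.838). The comparisons share mice, so the lower level of the WT smoke group enters the first and the second of them alike.

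Among receptors of lipocalin 2, Lrp2 (megalin) fell in WT smoke by 0.64 ± 0.07 on the log2 scale (limma adjusted p = 0.000632) and rose in mutant smoke against WT smoke by 0.35 ± 0.07 (limma adjusted p = 0.0219). Slc22a17, the other named receptor, had changes of 0.05 ± 0.07 and -0.05 ± 0.07 (limma adjusted p = 0.788 and 0.749). Of 16 tested genes of a list of iron and siderophore partners, 3 rose and 1 fell in WT smoke against room air, 2 rose and 0 fell in mutant against WT smoke, and 4 rose and 1 fell in mutant smoke against room air. Their median log2 changes were 0.07, -0.03 and 0.03, against -0.01, 0 and -0.01 over all genes tested. The shares of all genes that rose and fell were 2.30% and 2.55%, 2.49% and 3.56%, and 6.67% and 10.0%. In WT smoke the listed genes that rose included Ftl1, the ferritin light chain (0.45, limma adjusted p = 0.000624), and Hmox1, the haem-degrading enzyme (0.89, limma adjusted p = 0.000837).

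Neutrophil markers were measured beside Ltf and Lcn2 because neutrophils store both proteins. Of 12 listed markers 8 were tested, and 0 rose and 0 fell in WT smoke against room air. In mutant smoke 1 fell against WT smoke and 2 fell against room air, where 3.56% and 10.0% of all genes tested fell. The summed level of the 8 markers was taken on the linear scale relative to the 75th percentile. It ran from 10.1 to 21.7 in room air, from 13.5 to 18.3 in WT smoke and from 8.99 to 15.5 in mutant smoke. S100a9, an abundant neutrophil protein, was the largest part of these sums, with mean levels of 3.71, 3.82 and 3.47 in the 3 groups. It had a change of 0.10 ± 0.26 in WT smoke against room air (limma adjusted p = 0.887). Ly6g was not analysed here, and Camp, Ngp and Elane did not pass the filter on dim probes. The part of neutrophils in the Ltf and Lcn2 values was not tested.

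Reg3g encodes a secreted C-type lectin that binds peptidoglycan of Gram-positive bacteria. Its probe lies at chr6:78395935-78395994 (mm8). The levels were 2.93, 3.00, 3.21 and 2.16 in room air, 2.54, 1.40, 2.17 and 1.65 in WT smoke, and 1.75, 1.60, 1.80 and 1.53 in mutant smoke. Room air replicate 4 was the lowest of its group and overlapped with WT smoke, where replicates 1 and 3 were highest, while all 4 mutants lay close together below every room air mouse. Means were 2.83 ± 0.46, 1.94 ± 0.51 and 1.67 ± 0.12 (SD, n = 4). The change in WT smoke against room air was -0.89 ± 0.26 (95% interval -1.45 to -0.33) and did not pass (limma adjusted p = 0.0755). Without room air replicate 4 it was -1.11 (limma adjusted p = 0.0258), and without WT smoke replicate 1 it was -1.09 (limma adjusted p = 0.0332), so each of these mice decides the call. In mutant smoke Reg3g fell against room air by 1.16 ± 0.26 on the log2 scale, 2.23-fold (95% interval -1.72 to -0.60, limma adjusted p = 0.0106). Mutant and WT smoke differed by -0.27 ± 0.26 (95% interval -0.83 to 0.29, limma adjusted p = 0.614).

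Pigr encodes the polymeric immunoglobulin receptor, which moves dimeric IgA from the basal to the luminal side of epithelial cells and is released with it as secretory component. Its probe lies at chr1:132679010-132679069 (mm8). Levels were 0.20, 0.08, 0.98 and -0.18 in room air, -0.31, -0.67, -0.33 and -0.78 in WT smoke, and -1.47, -1.51, -1.23 and -0.84 in mutant smoke. The 3 groups formed 3 separate ranges, room air highest and mutant smoke lowest, with the mutant nearest to WT smoke at -0.84 against -0.78. Means were 0.27 ± 0.50, -0.52 ± 0.24 and -1.27 ± 0.31 (SD, n = 4). In mutant smoke Pigr fell against room air by 1.53 ± 0.23 on the log2 scale, 2.90-fold (95% interval -2.04 to -1.03, limma adjusted p = 0.00132). The step from room air to WT smoke was -0.79 ± 0.23 (95% interval -1.30 to -0.28, limma adjusted p = 0.0814), and that from WT smoke to mutant smoke was -0.74 ± 0.23 (95% interval -1.25 to -0.24, limma adjusted p = 0.0858). Neither step passed on its own. With the slide as a block both did, at -0.77 (limma adjusted p = 0.037) and -0.89 (limma adjusted p = 0.0204), and without room air replicate 3 the second step of -0.74 had a limma adjusted p of 0.0291.

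Partners of IgA transport were read beside Pigr. Of 24 tested genes, 0 rose and 0 fell in WT smoke against room air, 0 rose and 2 fell in mutant against WT smoke, and 1 rose and 4 fell in mutant smoke against room air. The median changes were 0.02, -0.03 and -0.06, against -0.01, 0 and -0.01 over all genes. The shares of all genes that rose and fell were 2.30% and 2.55%, 2.49% and 3.56%, and 6.67% and 10.0%. Tnfsf13b, which encodes the B cell survival factor BAFF, fell in mutants by 0.38 on the log2 scale against WT smoke (limma adjusted p = 0.00626) and by 0.48 against room air (limma adjusted p = 0.000478). Prdm1 also fell in mutants against WT smoke (-0.3, limma adjusted p = 0.0474). Against room air Irf4, Tnfrsf17 and Tnfrsf13b fell in mutants too (-0.53, -0.78 and -0.41, limma adjusted p = 0.0168, 0.0286 and 0.0374). The gene that rose there was Ccl20 (1.53, limma adjusted p = 0.0487). Jchain, which joins IgA monomers, had a change of -0.83 ± 0.44 in WT smoke against room air (limma adjusted p = 0.359). Igha, the gene of the IgA heavy chain, was not analysed here. Of 8 markers of B and plasma cells, 0 passed in any comparison, and their summed level ran from 17.9 to 23.0 in room air, 18.8 to 19.8 in WT smoke and 16.1 to 20.2 in mutant smoke.

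Slpi encodes the secretory leukocyte protease inhibitor, which blocks neutrophil elastase and is itself antibacterial. Its kept probe, A_52_P472324, lies at chr2:164045554-164045613 (mm8). The levels were 3.62, 3.60, 3.51 and 3.62 in room air, 3.71, 3.56, 3.34 and 3.67 in WT smoke, and 3.87, 3.73, 3.73 and 4.04 in mutant smoke. Every mutant lay above every mouse of both other groups, by a small margin. The mutant mean exceeded WT smoke by 0.28 ± 0.09 (95% interval 0.08 to 0.47, limma adjusted p = 0.102) and room air by 0.26 ± 0.09 (95% interval 0.06 to 0.46, limma adjusted p = 0.0719). Neither passed, and without WT smoke replicate 3 the second had a limma adjusted p of 0.0424. WT smoke and room air differed by -0.01 ± 0.09 (95% interval -0.21 to 0.18, limma adjusted p = 0.957). A list of proteases and protease inhibitors was read beside Slpi. It held metalloproteinases such as Mmp9 and cysteine cathepsins such as Ctss, and so not only targets of Slpi. Of the 12 tested genes of this list, 0 rose and 1 fell in WT smoke against room air. In mutant against WT smoke 2 rose and 1 fell, and in mutant smoke against room air 2 rose and 1 fell. Elane, which encodes neutrophil elastase, did not pass the filter on dim probes. For all genes tested, the shares that rose and fell were 2.30% and 2.55%, 2.49% and 3.56%, and 6.67% and 10.0%. Cma1, the mast cell chymase, fell in WT smoke by 0.75 on the log2 scale (limma adjusted p = 0.0178) and rose in mutant against WT smoke by 0.75 (limma adjusted p = 0.0177).

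Lyz1 and Lyz2 encode lysozymes, which cleave the peptidoglycan of bacterial walls. They are neighbouring genes of similar sequence, with 6.02 kb between the Lyz1 probe and the nearer Lyz2 probe (chr10:116692308-116692367 for Lyz1 and chr10:116681504-116681563 for the brighter Lyz2 probe, A_52_P238027, on mm8). The Lyz1 probe also lists the accession of Lyz2, so the 2 genes may not be told apart by it. Lyz1 levels were 7.37, 7.45, 7.33 and 7.44 in room air, 7.49, 7.17, 7.41 and 7.55 in WT smoke, and 7.44, 7.41, 7.40 and 7.36 in mutant smoke. The 3 groups overlapped. Its changes were 0.01 ± 0.08 (95% interval -0.16 to 0.17) in WT smoke against room air and 0.00 ± 0.08 (95% interval -0.17 to 0.16) in mutant against WT smoke, with limma adjusted p of 0.973 and 0.989. WT smoke replicate 2 had the highest Lyz1 processed signal (188500) but the lowest level (7.17). Replicate 4 of that group had the lowest signal (147500) but the highest level (7.55). These arrays had the highest and the lowest 75th percentile, and the part of the scaling in the lysozyme spread was not tested. No lysozyme probe was saturated on any array.

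The brighter Lyz2 probe had levels of 8.24, 8.22, 7.98 and 7.98 in room air, 8.09, 7.90, 8.20 and 8.53 in WT smoke, and 8.31, 8.41, 8.04 and 8.05 in mutant smoke. Its changes were 0.07 ± 0.13 for WT smoke against room air (limma adjusted p = 0.835), 0.02 ± 0.13 for mutant against WT smoke (0.955) and 0.10 ± 0.13 for mutant smoke against room air (0.678). The other Lyz2 probe, A_51_P321150 at chr10:116686229-116686288, had changes of 0.09, 0.10 and 0.19 ± 0.07 in the same comparisons, the last with a limma adjusted p of 0.107 over probes. The pair of probes did not rank the mice alike: their deviations had a Pearson r of -0.09 (permutation p = 0.81, adjusted p = 0.81) and a Spearman rho of -0.04 (permutation p = 0.914, adjusted p = 0.914), with r at -0.11 without the 2 mice farthest from the median. Of 7 alveolar macrophage markers tested, 4 rose and 0 fell in mutant against WT smoke, with a summed level of 94.7 to 110 in WT smoke and 127 to 188 in mutant smoke (94.0 to 102 in room air). Chil3 was the largest part of these sums, with mean levels of 6.16 in WT smoke, 6.9 in mutant smoke and 6.2 in room air. In mutant against WT smoke 2.49% of all genes tested rose and 3.56% fell. A further list of macrophage and monocyte markers without Lyz2 had 1 of 6 higher and 0 lower in that comparison, and sums of 6.63 to 7.57 against 6.99 to 8.84. The part of macrophages in the Lyz2 values was not tested. In whole lung RNA, fewer cells of a type and less RNA per cell cannot be told apart, for this and the other results.

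The windows before the 2 lysozyme starts, shown because the genes are neighbouring copies of one another, are chr10:117292869-117293118 and chr10:117282273-117282522 (GRCm38.p6, minus strand), with motif matches in capitals as above.
Lyz1: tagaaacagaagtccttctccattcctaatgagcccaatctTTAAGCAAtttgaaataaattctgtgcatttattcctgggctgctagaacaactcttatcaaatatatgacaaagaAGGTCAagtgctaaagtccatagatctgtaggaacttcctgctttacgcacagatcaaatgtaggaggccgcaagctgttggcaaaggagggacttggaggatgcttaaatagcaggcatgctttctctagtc
Lyz2: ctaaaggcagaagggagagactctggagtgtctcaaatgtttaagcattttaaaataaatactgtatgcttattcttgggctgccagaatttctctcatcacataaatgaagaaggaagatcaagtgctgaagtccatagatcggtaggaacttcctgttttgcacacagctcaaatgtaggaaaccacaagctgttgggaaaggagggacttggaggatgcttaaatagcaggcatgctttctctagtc
Aligned, they share 200 identical bases in 252 columns (79.4%), with 4 gap columns, and the last 50 bases before the start are identical. The AGGTCA and C/EBP matches of Lyz1, at 133 to 128 and at 209 to 202 bases before the start, are not in the Lyz2 window, which holds 0 matches.

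Bpifa1 encodes SPLUNC1, a secreted protein of the upper airway and of glands that lowers surface tension and binds bacterial lipids. Its probe lies at chr2:153839116-153839536 (mm8). Levels were 3.91, 4.81, 2.88 and 3.36 in room air, 3.68, 2.59, 3.73 and 3.35 in WT smoke, and 4.76, 4.29, 3.75 and 4.11 in mutant smoke. The mutants lay above all WT smoke mice, by 0.02 at the nearest values of 3.75 and 3.73, and within the wide room air range. The mutant mean exceeded WT smoke by 0.89 ± 0.39 (95% interval 0.04 to 1.74), which did not pass (limma adjusted p = 0.213). The changes against room air were -0.41 ± 0.39 in WT smoke (limma adjusted p = 0.654) and 0.49 ± 0.39 in mutant smoke (limma adjusted p = 0.436). Both moved with single mice: without room air replicate 2, the highest mouse, they were -0.05 and 0.84 (limma adjusted p = 0.964 and 0.125), and without room air replicate 3, the lowest of its group, they were -0.69 and 0.20 (limma adjusted p = 0.38 and 0.767). Of 9 club cell markers, 1 rose and 1 fell in WT smoke against room air and 0 rose and 2 fell in mutant against WT smoke, with summed levels of 1580 to 1700, 1370 to 1890 and 1380 to 1580 in the 3 groups. In mutant smoke against room air 0 club cell markers rose and 3 fell. Of all genes tested, 4.86%, 6.05% and 16.7% passed in either direction in these 3 comparisons. Of 3 tested markers of serous and gland cells, 0 passed in the first 2 comparisons and 1 fell in mutant smoke against room air, Scgb3a1, a secretoglobin of the airway (-0.60 ± 0.16, limma adjusted p = 0.0278).

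Dmbt1 encodes a scavenger receptor cysteine-rich glycoprotein of mucus that binds bacteria and surfactant proteins. Its probe, at chr7:130912497-130912556 (mm8), was dim, with a mean processed signal of 32.7 intensity units in room air, 30.9 with WT smoke and 33.3 with mutant smoke. Levels lay between -5.15 and -4.78 in room air, between -5.38 and -4.77 in WT smoke, and between -5.35 and -4.48 in mutant smoke. The 3 ranges overlapped, and the changes of -0.08, 0.06 and -0.02 had limma adjusted p of 0.877, 0.907 and 0.953.

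Arrays lay on 3 slides of 4, each with all 3 groups, and a slide holds a single mouse of at least 1 group. Each value within a slide is thus a difference between 1 mouse and either 1 other mouse or the mean of 2. For Ltf the change in WT smoke against room air was -1.33, -2.90 and -1.87 on slides 1, 2 and 3, and in mutant smoke against room air it was -0.69, -2.56 and -2.66. The Lcn2 change was -0.44, -0.58 and -1.04 in WT smoke against room air and 0.77, 0.55 and 0.46 in mutant against WT smoke. For Pigr the same pair of comparisons gave -0.32, -0.80 and -1.31, and -1.16, -0.79 and -0.71. Reg3g in mutant smoke against room air had -0.80, -1.40 and -1.55, and Pigr had -1.48, -1.59 and -2.02. In mutant against WT smoke the change was 0.17, 0.12 and 0.55 for Slpi and 1.08, 1.33 and 0.20 for Bpifa1. In each of these comparisons the groups did not overlap, so the sign of the pooled change was fixed in advance on every slide. Only the size of the change could differ between slides. For Reg3g in WT smoke against room air, where the groups overlapped, the change ranged from -0.01 on slide 1 to -1.48 on slide 2. With the slide as a block, the limma adjusted p in WT smoke against room air was 0.0303 for Ltf and 0.0867 for Lcn2.

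Spread between mice of a group differed among the members. The pooled SD within groups was 0.62 for Bpifa1, 0.59 for Ltf, 0.40 for Reg3g, 0.37 for Pigr, 0.30 for Dmbt1, 0.25 for Lcn2, 0.21 for Lyz2, 0.13 for Slpi and 0.11 for Lyz1, on the log2 scale. The median over all genes tested was 0.12. For Bpifa1 and Ltf, 98.4% and 98.2% of genes had a smaller SD, whereas for Lyz1 38.8% did. Deviations of the mice from their group means were compared for 36 pairs of members, and none passed after adjustment: 5 had an unadjusted permutation p under 0.05, and the lowest adjusted p was 0.268 for Pearson's r and 0.266 for Spearman's rho. The lowest p was that of Ltf with Bpifa1, with r of 0.69 (permutation p = 0.0143, adjusted p = 0.268) and rho of 0.78 (permutation p = 0.00739, adjusted p = 0.266), and r of 0.67 without the 2 mice farthest from the median of Ltf. Labels were permuted within groups.

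**Figure D4:**
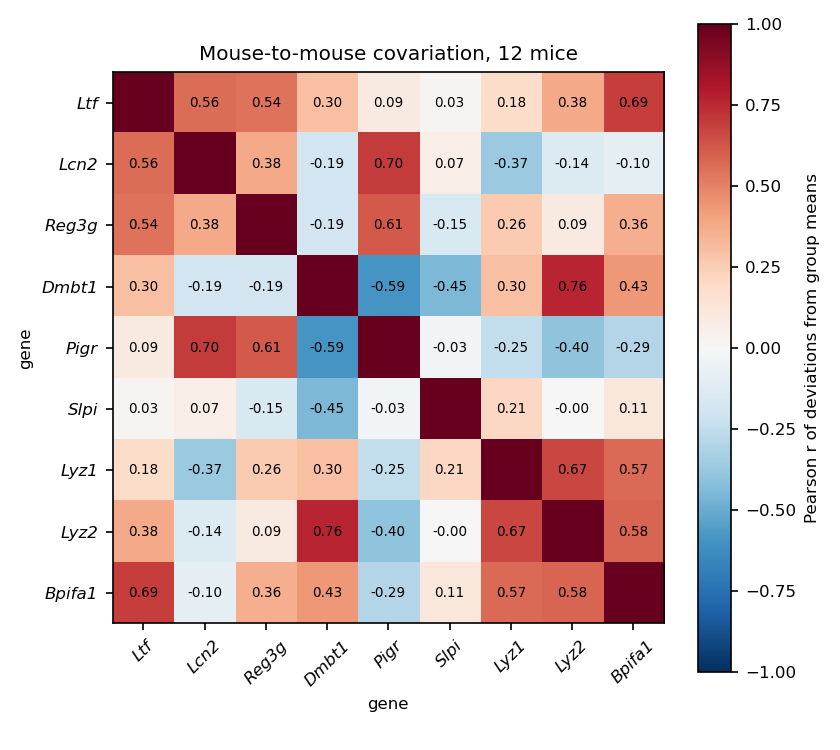
Pearson r between pairs of members over the deviations of 12 mice from their group means (colour and printed value; both axes list the 9 genes). The Ltf and Bpifa1 cell reads 0.69 and the Dmbt1 and Lyz2 cell 0.76, and none of the 36 pairs passed after adjustment.

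The genes with levels most like those of a member were found among 14329 candidates by the Pearson r of levels over the 12 mice, which holds the differences between groups as well as those between mice; the r of deviations from the group means is given second. Closest to Ltf were Clmn (0.95 and 0.91), Oit1 (0.94 and 0.73) and Sugct (0.94 and 0.81). Lcn2 was followed most closely by Chil1 (0.94 and 0.94), a chitinase-like secreted protein, then by Egfl6 (0.93 and 0.84) and Lrg1 (0.91 and 0.75). For Reg3g they were Uox (0.97 and 0.96), Spag6l (0.95 and 0.89) and Mlf1 (0.95 and 0.84). For Pigr they were A2ml1 (0.97 and 0.85), the water channel gene Aqp4 (0.97 and 0.83) and Pramel13 (0.94 and 0.76). For Lyz1 they were Trim46 (0.88 and 0.90), the club cell secretoglobin Scgb1a1 (0.87 and 0.90) and Prm1 (0.87 and 0.92). The closest to Slpi was Clec2d (0.91 and 0.85), to Lyz2 Zcchc13 (0.92 and 0.93), to Dmbt1 Asic1 (0.90 and 0.93) and to Bpifa1 Slc23a3 (0.88 and 0.86). The maximum over so many candidates is high by selection, and these values carry no test.

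A list of 68 other antimicrobial proteins of the airway had 41 tested genes. In WT smoke against room air 1 rose and 6 fell, in mutant against WT smoke 2 rose and 3 fell, and in mutant smoke against room air 4 rose and 10 fell, with median changes of -0.07, -0.05 and -0.17. Over all genes tested, 2.30% rose and 2.55% fell, 2.49% rose and 3.56% fell, and 6.67% rose and 10.0% fell in these comparisons, with medians of -0.01, 0 and -0.01. Bpifb1, a secreted relative of Bpifa1, had means of 2.45, 0.91 and 0.49 in room air, WT smoke and mutant smoke. It fell by 1.54 ± 0.24 on the log2 scale in WT smoke against room air (limma adjusted p = 0.00363), and its change in mutant against WT smoke was -0.42 ± 0.24 (limma adjusted p = 0.347). Muc5b, the gel-forming mucin of the airway, fell in WT smoke by 1.63 ± 0.10 (limma adjusted p = 5.88e-06) and in mutants by a further 0.79 ± 0.10 (limma adjusted p = 0.00204). The secreted phospholipase Pla2g5 fell in both steps too, by 1.03 ± 0.22 and 1.06 ± 0.22 (limma adjusted p = 0.0248 and 0.0202). Between the smoke groups Wfdc12, which like Slpi carries a whey acidic protein domain, fell by 1.31 ± 0.16 in mutants (limma adjusted p = 0.00114), whereas Wfdc21, another gene of that family, rose by 0.69 ± 0.14 (limma adjusted p = 0.0157). The lung collectin Sftpd fell in WT smoke by 0.45 ± 0.10 (limma adjusted p = 0.0262).

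**Figure D5:**
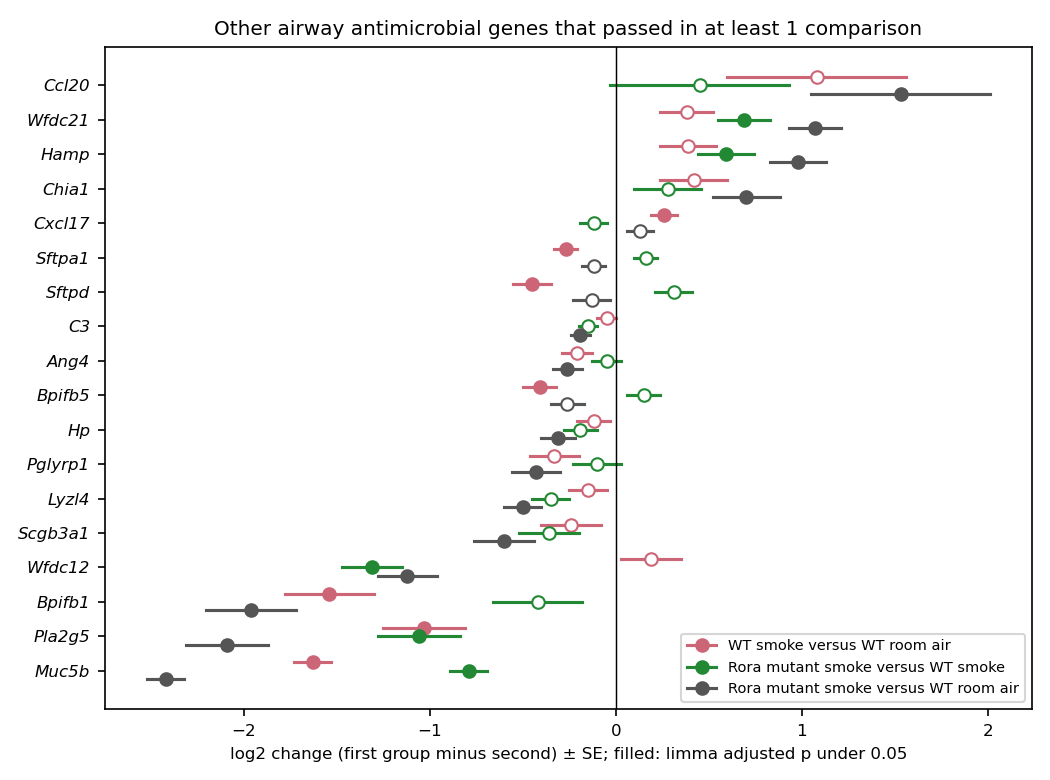
Log2 change (points; bars are ± SE from limma, 4 mice per group) of the 18 other airway antimicrobial genes that passed in at least 1 comparison, with filled points for a limma adjusted p under 0.05. The genes are ordered by the change in mutant smoke against room air, from Muc5b (-2.42) to Ccl20 (1.53).

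Goblet cell markers fell in both comparisons with room air, beside the members above. Of 9 listed, Muc5b of the antimicrobial list among them, 8 were tested, all of them well above background on 12 arrays; 7 fell and 0 rose in WT smoke, and 8 fell in mutant smoke. Between the smoke groups 4 fell and 0 rose. In the same order, 2.55%, 10.0% and 3.56% of all genes tested fell. The summed level of the 8 goblet cell markers ran from 11.7 to 38.9 in room air, from 2.74 to 4.60 in WT smoke and from 1.80 to 2.23 in mutant smoke, so the groups did not overlap. Clca1 had the highest mean of the 8 in room air (3.83, then Muc5b at 2.19) and means of -2.59 and -5.72 in WT and mutant smoke. The sums thus depend much on this gene. Markers of ciliated cells had sums of 22.2 to 25.3, 19.8 to 25.5 and 17.6 to 18.6, with 0 of 7 lower in WT smoke and 5 of 7 lower in mutant smoke, each against room air. In mutant against WT smoke 2 of 7 were lower, Tekt1 (-0.34, limma adjusted p = 0.0329) and Tmem212 (-0.31, limma adjusted p = 0.0382). General epithelial markers had sums of 97.1 to 103, 97.4 to 119 and 99.8 to 110, and 0 of 6 passed in any comparison. The part of these cell types in the members' values was not tested.

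IL-17 and IL-22 signalling induces several of the members in other settings. Of 36 listed genes of this signalling 27 were tested, and the ligand genes Il17a, Il17f and Il22 were not among the 27. Of those tested, 3 rose and 0 fell in WT smoke against room air, and 0 rose and 1 fell in mutant against WT smoke. In mutant smoke against room air 4 rose and 3 fell. The median changes were 0.11, -0.06 and 0.07, against -0.01, 0 and -0.01 over all genes. The shares of all genes that rose and fell were 2.30% and 2.55%, 2.49% and 3.56%, and 6.67% and 10.0%. The receptor subunits Il17re and Il17rc rose in WT smoke by 0.29 and 0.19 (limma adjusted p = 0.00776 and 0.043), and the neutrophil chemokine Cxcl5 rose by 1.68 ± 0.43 (limma adjusted p = 0.0457). The part of this signalling in the members' values was not tested.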

How the data were processed

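Whole lung RNA of 12 mice was hybridised to 1 single-colour array each. Spots were read with Agilent Feature Extraction 9.5.3.1 per the submitters' processing notes. Per the file headers the processed signal is a linear intensity after background subtraction and detrending within each array, with positions on build mm8. The spot mean and local background in the deposited files are intensities as scanned, and the deposited flags are other values (0 or 1). The deposited value table holds log2 values, whose steps are not given in the sources used here. It correlated with the log2 processed signal at 0.99952 or more on each array. The median of its column medians was 6.8.

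From 43379 non-control spots, 41174 probes were formed by averaging, without outlier spots. Probes with a signal well above background on 4 or more arrays and a value on 3 or more arrays per group were kept (30197 probes), and the brightest kept probe stood for a gene (19829 genes). Symbols came from a RefSeq annotation, through the probe's accession (24375 probes), a listed accession (115) or symbol or synonym (8625), and 8059 kept the file's name. One model with a mean per group was fitted on all 12 arrays with limma 3.58.1 (lmFit and eBayes, R 4.3.3, data.table, version 1.17.8). Tests were two-sided, with Benjamini-Hochberg adjustment across the genes within each comparison and a threshold of 0.05. Correlations between members used 100000 permutations within groups (Python 3.11.15, numpy 2.4.6, pandas 2.3.3, scipy 1.17.1); promoters were aligned with Biopython 1.88 and plots drawn with matplotlib 3.10.9. The fit was tested on simulated data.

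Members and gene lists were chosen with earlier results of these data known, so no list's count or direction is independent support. Named list genes were taken mainly from those with the smallest p in a comparison, others for their known role beside a member. Members were removed from the marker lists. The labels call the arrays biological replicates. Same-numbered mice deviated together (r over 0.1) in 4 of 12 pairs, while 7 of 12 arrays correlated best with an array of their own number. Replicates 1, 2 and 3 of each group lay on slides 1, 2 and 3, so number and slide largely coincide. The numbers were not taken as pairs in the main fit. Alternatives were quantile normalization, the authors' values, normexp background correction (offset 50), no filter or a filter on all 12 arrays, the mean of a gene's probes, slide or replicate number as a block, only the 8 arrays compared, and leaving out each array.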

Additional observations from a re-analysis of the deposited data

How the results depend on the processing

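Every member was recomputed under 21 alternatives, 9 settings and 12 arrays left out in turn, and no called change turned its direction. Ltf in WT smoke against room air ran from -2.28 to -1.83, with a limma adjusted p of 0.00349 to 0.106, and lost its call with normexp background correction only (-1.83, limma adjusted p = 0.106). In mutant smoke against room air, Ltf, Pigr and Reg3g lost theirs under the same setting only (-1.79, -1.12 and -1.17; limma adjusted p = 0.0543, 0.0624 and 0.0728). Normexp also left few calls over all genes (40 higher and 13 lower in WT smoke against room air, 12 and 16 in mutant against WT smoke, 89 and 92 in mutant smoke against room air, in place of 457 and 506, 493 and 706, and 1323 and 1990) and moved the median change of all genes to -0.07, 0.10 and 0.08; the cause was not tested. The count of members lower in WT smoke against room air, 2, became 1 with the authors' value table, 0 with normexp, 1 with no filter on dim probes and 1 with only the 8 arrays compared, and 1 to 3 without single arrays. The count lower in mutant smoke against room air, 3, became 0 with normexp and was 3 without any single array. In mutant against WT smoke the count higher, 0, became 1 with the filter on all 12 arrays (Lcn2), 1 with the replicate block (Slpi, 0.28, limma adjusted p = 0.04998) and 1 with only the 8 arrays compared (Lcn2, limma adjusted p = 0.0477), and 0 to 1 without single arrays; the count lower, 0, became 1 with the slide as a block (Pigr) and 0 to 1 without single arrays. In mutant smoke against room air the count higher, 0, became 1 with the replicate block (Slpi, 0.26, limma adjusted p = 0.0324) and 0 to 1 without single arrays; in WT smoke against room air it was 0 throughout. With the replicate block, Reg3g in WT smoke against room air had a limma adjusted p of 0.0484 and Lcn2 of 0.10. The replicate block lowered the count of all genes lower in that comparison to 332, and 7 of 12 arrays correlated best with an array of their own number. With no filter, the gene counts were 294 and 270 in WT smoke against room air and 298 and 390 in mutant against WT smoke; the slide block gave 335 lower in the first, and the fit on 8 arrays gave 411 lower in the second. Without single arrays they ran from 275 to 459 higher and 264 to 502 lower in the first, 281 to 466 and 297 to 732 in the second, and 881 to 1262 and 1342 to 1965 in mutant smoke against room air.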
